A study of Mus musculus with 11 samples.

Results

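Serine and one-carbon folate metabolism was examined as 9 enzyme genes, taken by symbol from the soleus and quadriceps expression tables of a mouse RNA sequencing series. All 9 genes (Shmt1, Shmt2, Mthfd1, Mthfd1l, Mthfd2, Phgdh, Psat1, Psph and Aldh1l2) are in the soleus table and 8 are in the quadriceps table, out of 13359 genes in either table; Mthfd1l was not analysed in quadriceps. The 11 libraries come from whole hindlimb muscle of mice aged 2.5 months. The labels say that 1 set had a tetracycline-inducible Myc system, was given doxycycline overnight to overexpress the transcription factor Myc, and was harvested 12 hours after the drug was taken away, while mice of the same age served as controls. Soleus, a postural muscle rich in slow fibres, gave 3 control and 4 Myc-labelled libraries, and quadriceps, mostly fast, gave 2 of each. The labels used here do not give the controls' genotype, whether the controls received doxycycline, the promoter that drives the inducible system, or whether a soleus and a quadriceps library came from 1 animal. Nothing in them says how many animals a library holds, so p-values reflect sample-to-sample spread only, which may be technical.

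Cells draw single carbon units mainly from serine. Serine is made from the glycolytic intermediate phosphoglycerate by Phgdh, Psat1 and Psph in turn, and serine hydroxymethyltransferase then splits it into glycine and a carbon unit carried on tetrahydrofolate. That chemistry exists in parallel in the cytosol (Shmt1, Mthfd1) and in mitochondria (Shmt2, Mthfd2, Mthfd1l, Aldh1l2), with formate and serine moving between them, and it feeds purine and thymidylate synthesis, methionine regeneration and NADPH. Several of these genes are textbook targets of Myc or of the stress factor Atf4 in dividing cells, whereas mature muscle fibres do not divide.

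Values are normalised read counts, that is, reads divided by 1 size factor per library. Estimated depth was 11.1 to 14.9 M reads in soleus and 14.2 to 18.4 M in quadriceps. The Myc row itself did not separate the groups: it held 30.0, 54.3 and 28.2 in soleus controls against 26.3, 31.0, 28.8 and 27.7 in Myc-labelled soleus, and 113.7 and 55.7 against 86.4 and 33.6 in quadriceps (limma, adjusted p = 0.69 and 0.93). Whether this row counts reads of the inducible Myc copy is not given, and harvest came 12 hours after the drug was taken away. The row thus cannot show whether Myc had been induced. All directions here are therefore drawn from the labels. Muscle fibre markers were abundant in every library and none was listed at 0. Over 7 genes they summed to 1137000 to 1219000 in soleus controls and to 979800 to 1096000 in Myc-labelled soleus, without overlap. In quadriceps these sums overlapped. Mylpf, 1 of 8 fast fibre markers, had an adjusted p under 0.05 in soleus (limma), and no other marker did in either muscle. Myc-labelled soleus libraries 3 and 4 stood apart in tendon markers (sums of 2006 and 3172 over 7 genes, against 6061 to 8277 in the other soleus libraries) and in fibroblast markers (5445 and 8104 over 6 genes, against 13380 to 20280). These libraries were also the lowest in soleus for erythroid markers (2538 and 1926, against 3308 to 4639) and endothelial markers (4839 and 4568, against 5296 to 6186). The slow fibre markers of quadriceps summed to 23690 and 174000 in the controls and to 1538 and 2475 in the Myc-labelled libraries, over 7 genes. In whole muscle, fewer cells of a type and less RNA per cell cannot be told apart.

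Shmt1 and Mthfd1, the cytosolic pair, rose in Myc-labelled soleus, by 5.20-fold and 2.01-fold. None of the 7 other enzymes passed the test across all genes in soleus, and none of 8 passed it in quadriceps. The cytosolic pair was thus called (limma on log2(value + 1), Benjamini-Hochberg adjusted p under 0.05) as 2 of 9 genes, where 7.06% of the 12745 genes tested in soleus were called higher. Of the 9, 5 were higher at an unadjusted p under 0.05 (12.9% of all genes), and the same 5 had every Myc-labelled library above every control (12.7% of all genes): Shmt1, Mthfd1, Shmt2, Mthfd2 and Psat1. The median log2 change of the 9 was 0.35, against -0.04 over all genes tested.

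Because Shmt1 and Mthfd1 moved together, the DNA just upstream of their starts is shown, with that of Shmt2, the mitochondrial counterpart of Shmt1, for comparison. Each run is the 250 bases before the start on the gene's own strand, from RefSeq in build GRCm38.p6. Capitals mark the CCAAT box, which reads ATTGG where it lies on the other strand.
Shmt1, chr11:60811266-60811515, minus strand: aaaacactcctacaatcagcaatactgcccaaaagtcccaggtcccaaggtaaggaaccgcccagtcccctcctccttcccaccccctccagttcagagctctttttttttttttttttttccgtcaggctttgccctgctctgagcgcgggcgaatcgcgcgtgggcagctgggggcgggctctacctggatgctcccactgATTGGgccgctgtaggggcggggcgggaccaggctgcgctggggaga
Mthfd1, chr12:76254982-76255231, plus strand: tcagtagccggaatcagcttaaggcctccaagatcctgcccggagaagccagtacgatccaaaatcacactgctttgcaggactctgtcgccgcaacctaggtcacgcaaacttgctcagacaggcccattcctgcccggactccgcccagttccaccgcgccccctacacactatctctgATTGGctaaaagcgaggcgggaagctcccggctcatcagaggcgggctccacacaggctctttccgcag
Shmt2, chr10:127522445-127522694, minus strand: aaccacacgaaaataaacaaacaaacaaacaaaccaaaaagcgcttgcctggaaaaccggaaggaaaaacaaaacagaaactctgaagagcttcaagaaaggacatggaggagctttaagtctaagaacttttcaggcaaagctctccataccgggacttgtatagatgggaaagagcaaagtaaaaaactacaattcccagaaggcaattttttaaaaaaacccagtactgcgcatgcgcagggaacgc
The Shmt1 window has its box starting 47 bases before the start and the Mthfd1 window has one 69 bases before it, both as ATTGG, and the Shmt2 window has none. The first 2 windows are also richer in G and C (60.7% and 59.0% of the 300 bases that run to 50 past the start) than the Shmt2 window (42.7%), against a median of 52.7% over 32851 mouse promoters. The windows of Psph (65.0%) and Psat1 (60.3% and 66.7%), which were not called, lay between or above those of the pair.

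The RefSeq promoter table matched 8 of the 9 genes, with 9 windows of 300 bases, and Aldh1l2 was not matched. Searched on both strands, CACGTG, the E-box that Myc and Max bind, was in 0 of the 9 windows and in 7.15% of all promoters. TGATGNAA, an Atf4-type element, was in 0 of the 9 and in 3.97% of all promoters. The letters CCAAT were in 6 of the 9 windows, those of Mthfd1, Mthfd2, Phgdh, Psat1, Psph and Shmt1, and in 37.4% of all promoters. GGGCGG, the GC box, was in 5 windows and in 35.7% of all promoters. CCAAT and GGGCGG were chosen after the sequences were seen, and their matches can share bases. Of the 6 genes that hold CCAAT, Mthfd2, Phgdh, Psat1 and Psph were not called in either muscle. A window with no match says only that these letters are not in it.

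Shmt1, the cytosolic serine hydroxymethyltransferase, held 42.4, 66.9 and 64.6 normalised reads in the 3 soleus controls and 313.5, 241.9, 373.1 and 284.0 in the 4 Myc-labelled soleus libraries. Every Myc-labelled library was several times above every control. Means were 58.0 ± 13.5 (SD, n = 3) and 303.1 ± 55.1 (SD, n = 4), a log2 change of 2.38 with SE 0.23 (95% interval 1.90 to 2.86, limma adjusted p = 3.68e-06). By size this was rank 20 among the 12745 genes tested.

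In quadriceps Shmt1 held 75.4 and 65.7 in controls and 360.0 and 249.7 in Myc-labelled libraries, so these groups did not overlap either. The log2 change was 2.08 with SE 0.27 (95% interval 1.45 to 2.71). Its unadjusted p of 7.69e-05 was rank 5 among 12270 genes, and it missed the threshold after adjustment (limma, adjusted p = 0.19). In 1 fit over all 11 libraries the same quadriceps contrast was called (limma, adjusted p = 0.0052). That fit gives each gene 1 spread shared by both muscles and treats all libraries as independent, so this call leans on the soleus libraries. Without Myc-labelled quadriceps library 2, which leaves 1 library in that group, the log2 change was 2.34. Without quadriceps control 2, the library highest in slow fibre markers, the log2 change was 1.98. The control that remains was also above the Myc-labelled libraries in those markers (sum of 23690 against 1538 and 2475).

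Mthfd1, the cytosolic enzyme that interconverts methylene-, methenyl- and formyl-tetrahydrofolate and also loads formate onto the carrier, held 599.1, 607.2 and 639.8 in soleus controls and 1155, 1192, 1355 and 1265 in Myc-labelled soleus. The controls lay within a narrow band and each Myc-labelled library was far above it. Means were 615.4 ± 21.6 (SD, n = 3) and 1242 ± 88.5 (SD, n = 4), a log2 change of 1.01 with SE 0.10 (95% interval 0.79 to 1.23, limma adjusted p = 5.95e-06). Without Myc-labelled soleus libraries 3 and 4, the ones low in tendon and fibroblast markers, the log2 changes of Mthfd1 and Shmt1 were 0.93 and 2.26, both still called (limma, adjusted p = 0.00092 and 0.001).

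Quadriceps gave Mthfd1 667.3 and 611.7 in controls and 1112 and 1139 in Myc-labelled libraries. The 2 groups did not overlap, and the log2 change was 0.82 with SE 0.16 (95% interval 0.45 to 1.18). It was not called (unadjusted p = 0.000966, limma adjusted p = 0.34), except in the fit over all 11 libraries, with its spread shared between muscles (limma, adjusted p = 0.0098). Without quadriceps control 2 the log2 change was 0.75.

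**Figure D1:**
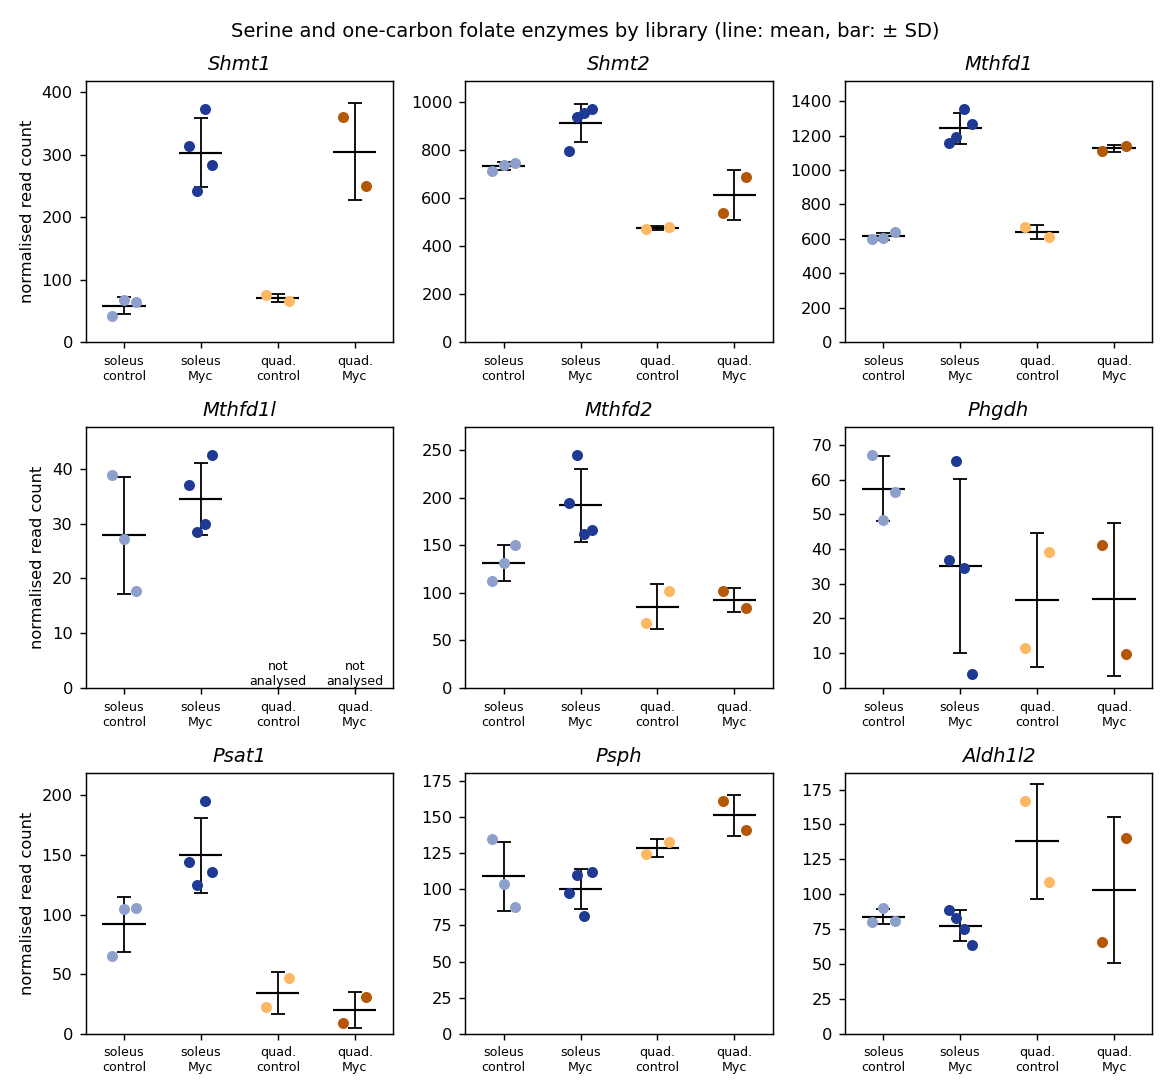
Normalised read count (vertical axis, linear and starting at 0) of each of the 9 enzymes in each library, with soleus in blue and quadriceps in orange, controls pale and Myc-labelled libraries dark; horizontal lines are means and bars are ± SD. Shmt1, Mthfd1 and Shmt2 show no overlap between control and Myc-labelled libraries in either muscle, and Phgdh in Myc-labelled soleus runs from 3.96 to 65.3.

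The mitochondrial enzymes showed smaller differences, none of them called. Shmt2, which makes most of the glycine and methylene-tetrahydrofolate of mitochondria, held 713.9, 738.2 and 745.5 in soleus controls and 798.2, 936.7, 954.5 and 971.8 in Myc-labelled soleus. All 4 Myc-labelled libraries were above the controls, the lowest by a small margin. The log2 change was 0.32 with SE 0.11 (95% interval 0.09 to 0.54, limma adjusted p = 0.079). It passed the threshold when libraries were scaled to equal totals (0.36, adjusted p = 0.034) and without Myc-labelled soleus library 1 (0.38, limma adjusted p = 0.045). In quadriceps Shmt2 held 470.0 and 480.4 against 539.9 and 686.9, a log2 change of 0.36 (95% interval -0.06 to 0.78, limma adjusted p = 0.85).

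Mthfd2, the mitochondrial methylene-tetrahydrofolate dehydrogenase, held 112.2, 131.0 and 150.3 in soleus controls and 194.7, 245.3, 162.3 and 166.3 in Myc-labelled soleus. The groups did not overlap, but library 2 was well above the other Myc-labelled ones and library 3 was near the highest control. The log2 change was 0.54 with SE 0.21 (95% interval 0.10 to 0.98, limma adjusted p = 0.13). Quadriceps values interleaved, with 68.5 and 102.2 in controls and 101.8 and 83.9 in Myc-labelled libraries (log2 change 0.14, 95% interval -0.62 to 0.90).

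Mthfd1l, the mitochondrial formyl-tetrahydrofolate synthetase that releases formate, was low, at 38.9, 27.2 and 17.6 in soleus controls and 37.0, 28.5, 29.9 and 42.6 in Myc-labelled soleus. These ranges overlapped (log2 change 0.35, 95% interval -0.54 to 1.23, limma adjusted p = 0.68). Aldh1l2, the mitochondrial formyl-tetrahydrofolate dehydrogenase, lay between 80.4 and 90.2 in soleus controls and between 63.3 and 88.6 in Myc-labelled soleus (log2 change -0.12, 95% interval -0.66 to 0.42, limma adjusted p = 0.83). In quadriceps it held 167.1 and 108.9 in controls and 65.8 and 140.1 in Myc-labelled libraries, and the low library was also the one lowest in tendon markers, with a sum of 272.5 against 1301 to 3738 in the other 3. The part of those cells in the Aldh1l2 values was not tested.

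The 3 enzymes of serine synthesis did not move as a group. Phgdh, the first and committed step, held 67.2, 48.5 and 56.4 in soleus controls and 37.0, 65.3, 34.5 and 3.96 in Myc-labelled soleus. Library 4 was the low one, with 4 reads (exact Poisson 95% interval 1.09 to 10.2, counting error only), and library 2 lay within the range of the controls. The log2 change was -1.16 with SE 0.77 (95% interval -2.90 to 0.57, limma adjusted p = 0.43), and it was -0.37 without library 4. In quadriceps 1 library of each group was at 10 reads and the other near 40 normalised reads: controls held 11.6 and 39.1 and Myc-labelled libraries 41.1 and 9.87.

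Psat1, the aminotransferase of the second step, held 65.4, 104.8 and 105.7 in soleus controls and 144.1, 124.7, 195.7 and 135.6 in Myc-labelled soleus. Every Myc-labelled library was above the controls, and the log2 change was 0.71 with SE 0.25 (95% interval 0.19 to 1.24, limma adjusted p = 0.089). In quadriceps it was low, at 22.1 and 46.5 in controls and 9.26 and 30.6 in Myc-labelled libraries, and these overlapped (log2 change -0.88, 95% interval -2.58 to 0.82, limma adjusted p = 0.91). The lowest of these values rests on 9 reads, with an exact Poisson 95% interval of 4.12 to 17.1 reads.

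Psph, the phosphatase of the last step, ranged from 88.1 to 135.2 in soleus controls and from 81.8 to 111.8 in Myc-labelled soleus (log2 change -0.11, 95% interval -0.63 to 0.41, limma adjusted p = 0.85). Quadriceps held 124.2 and 133.0 in controls and 161.5 and 141.1 in Myc-labelled libraries, a log2 change of 0.23 (95% interval -0.33 to 0.79, limma adjusted p = 0.94).

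Of the 8 enzymes tested in quadriceps 0 were called, where limma called 0.00815% of 12270 genes higher, which is 1 gene. At an unadjusted p under 0.05, 2 were higher, Shmt1 and Mthfd1, against 3.97% of all genes. Both Myc-labelled libraries were above both controls for 4 of the 8 (Shmt1, Mthfd1, Shmt2 and Psph), against 18.3% of all genes. The median log2 change of the 8 was 0.19, against -0.03 over all genes tested.

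**Figure D2:**
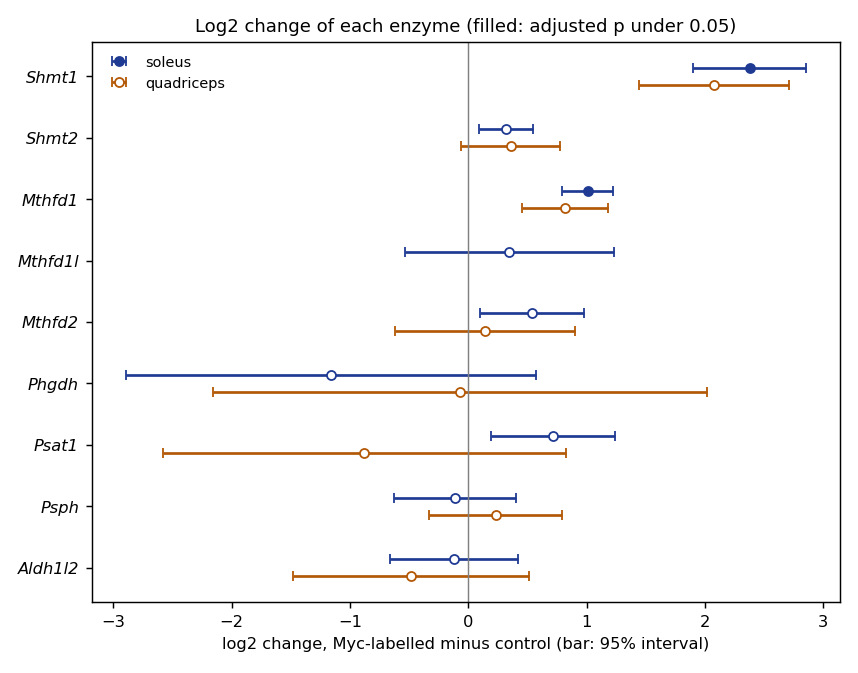
Log2 change of each enzyme, Myc-labelled minus control (horizontal axis), in soleus (blue) and quadriceps (orange), with 95% intervals as bars and filled symbols for an adjusted p under 0.05. Only the soleus values of Shmt1 (2.38) and Mthfd1 (1.01) are filled, and the widest intervals belong to Phgdh, from -2.90 to 0.57 in soleus.

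Whether the response differed between muscles was tested as an interaction in 1 fit over all 11 libraries, treating libraries of both muscles as independent. It called 0 of the 8 enzymes, and 0.0% of the 11971 genes tested. For Shmt1 the difference, soleus minus quadriceps, was 0.30 (95% interval -0.49 to 1.09), and for Mthfd1 it was 0.19 with an interval of -0.15 to 0.54. The largest difference was that of Psat1, 1.59 with an interval of 0.24 to 2.95. Its p was 0.0243 before adjustment and 0.999 after it (limma interaction term). No other enzyme had an unadjusted p under 0.05, against 3.18% of all genes.

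Several enzymes share transcribed sequence with a gene on the opposite strand in GENCODE vM21, and whether the counting used strand is not given in the sources used here. Shmt1 shares 184 of its 2858 exon bases with Smcr8, whose log2 change was -0.22 in soleus and -0.17 in quadriceps. Mthfd1 shares 37 of 3241 with Gm47525, a noncoding RNA not analysed here. Shmt2 shares 32 of 2305 with Ndufa4l2, whose log2 change was -0.04 in soleus. Psph shares 452 of 1733 with Cct6a, a chaperonin subunit that rose in soleus (log2 change 1.06, limma adjusted p = 4.85e-06) while Psph did not pass the test. In quadriceps, where Psph was higher without overlap, the log2 change of Cct6a was 0.76 (limma, adjusted p = 0.465). The part of shared reads in the Psph values was not tested. Aldh1l2 shares 1056 of 6091 with D10Wsu102e, which also rose in soleus (log2 change 0.81, limma adjusted p = 0.0198). Phgdh has a named pseudogene, Phgdh-ps1, with which reads could be split.

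Levels of different enzymes can be set side by side per kilobase of exon. In soleus controls the order of mean level per kilobase was Shmt2 (317.8), Mthfd1 (189.9), Mthfd2 and Psph (62.9 each), Psat1 (31.3), Phgdh (30.3), Shmt1 (20.3), Aldh1l2 (13.8) and Mthfd1l (6.53). The ranges over libraries overlapped between Mthfd2 and Psph and between Psat1 and Phgdh, and between no other neighbours. In Myc-labelled soleus Mthfd1 (383.1) reached the level of Shmt2 (397.1), with overlapping ranges, and Shmt1 (106.1) was the third, overlapping Mthfd2 (92.2). Psph (57.8) overlapped Psat1 (51.1), and Phgdh (18.6) overlapped Aldh1l2 (12.7).

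Quadriceps controls had Shmt2 (206.2) and Mthfd1 (197.3) at overlapping levels per kilobase, then Psph (74.2), Mthfd2 (40.9), Shmt1 (24.7), Aldh1l2 (22.7), Phgdh (13.4) and Psat1 (11.7). Ranges also overlapped between Shmt1 and Aldh1l2, between Aldh1l2 and Phgdh, and between Phgdh and Psat1. In Myc-labelled quadriceps Mthfd1 (347.2) was above Shmt2 (266.1) without overlap, and Shmt1 (106.7) was again the third, overlapping Psph (87.3). The tables of the 2 muscles were normalised separately, so levels were not tested between them.

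Summed over the enzymes, the level per kilobase was 735.7 ± 14.1 in soleus controls (SD, n = 3) and 1127 ± 57.0 in Myc-labelled soleus (SD, n = 4), with ranges of 721.3 to 749.5 and 1054 to 1192. In quadriceps, over 8 enzymes, it was 591.0 ± 13.1 and 889.0 ± 11.4 (SD, n = 2 each). The cytosolic pair made up 28.6% ± 0.84 of that sum in soleus controls and 43.4% ± 2.62 in Myc-labelled soleus, and 37.6% and 51.1% in quadriceps. Shmt1 alone went from 2.75% to 9.41% in soleus. The share of Shmt2 was 43.2% in soleus controls and 35.2% in Myc-labelled soleus, although its level was not lower in any of those libraries than in the controls. Serine synthesis enzymes held 15.6% to 18.8% of the sum in soleus controls and 10.03% to 12.3% in Myc-labelled soleus. Their summed level per kilobase was 124.5 ± 10.02 (SD, n = 3) and 127.5 ± 11.7 (SD, n = 4), with overlapping ranges.

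**Figure D3:**
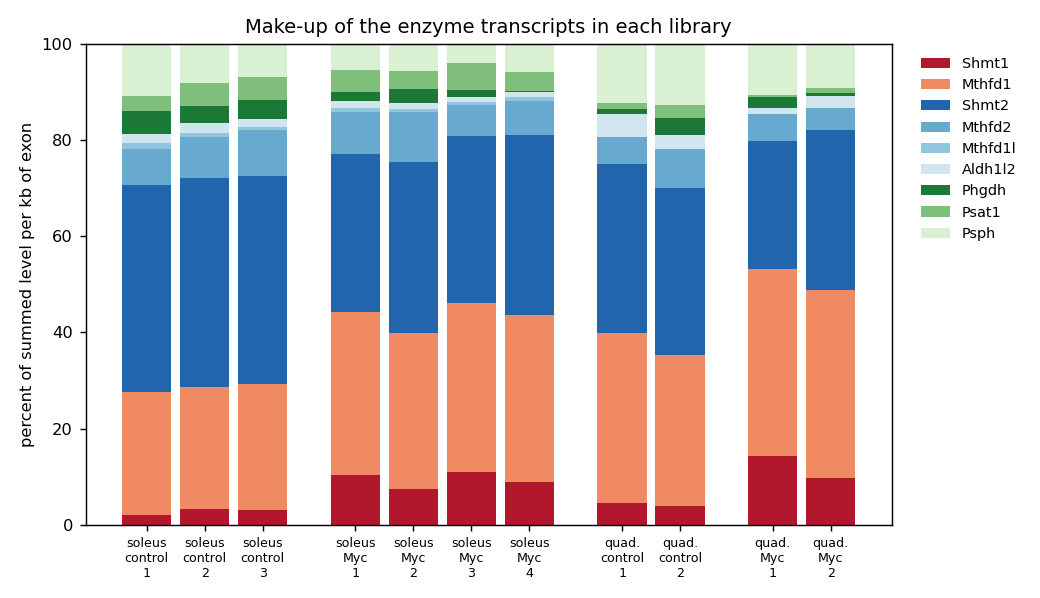
Share of each enzyme in the summed level per kilobase of exon (vertical axis, percent) in each of the 11 libraries, cytosolic enzymes in reds, mitochondrial enzymes in blues and serine synthesis enzymes in greens. The 2 red bands, Shmt1 and Mthfd1, cover 27.7% to 29.4% in soleus controls and 39.8% to 46.0% in Myc-labelled soleus, and 35.3% to 39.9% and 48.9% to 53.2% in quadriceps, where Mthfd1l is not included.

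Ratios within a library do not depend on its scaling. The log2 ratio of Shmt1 to Shmt2, cytosolic to mitochondrial, lay between -4.04 and -3.44 in soleus controls and between -1.95 and -1.35 in Myc-labelled soleus, a difference of 2.06 between means. The groups did not overlap, and the exact two-sided permutation test gave p = 0.0571, the smallest that 35 splits allow (0.30 after adjustment over 7 tests). In quadriceps the same ratio averaged -2.74 in controls and -1.02 in Myc-labelled libraries, again without overlap (exact permutation p = 0.333, the smallest that 6 splits allow). Neither muscle can reach 0.05 in this design.

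The other ratios overlapped between groups. Mthfd1 to Mthfd1l averaged 4.48 in soleus controls and 5.15 in Myc-labelled soleus on the log2 scale. Mthfd2 to Mthfd2l, its adult-tissue relative in mitochondria, averaged 1.07 and 2.12 in soleus and 0.37 and 0.64 in quadriceps. Psat1 to Phgdh, the second to the first step of serine synthesis, ranged from -0.04 to 1.10 in soleus controls and from 0.92 to 4.78 in Myc-labelled soleus, where the highest value comes from the library with 4 Phgdh reads.

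Across the 11 libraries, after the mean of each table was removed, Shmt1 and Mthfd1 had a Pearson r of 0.981 on the log2 scale. Shmt2 had r = 0.868 with Mthfd1 and 0.793 with Shmt1, whereas Phgdh and Psat1 had r = -0.282 and Psat1 and Psph -0.643. These values are a description: the libraries of a muscle share a normalisation, and both muscles share the contrast. Among 9783 genes with enough reads in both muscles, those most like Shmt1 were Ppan (r = 0.99), Yars (0.986) and Npm1 (0.984), and those most like Mthfd1 were Mrps18b (0.994), Mybbp1a (0.993) and Eif3d (0.992). Tbrg4, Akt1 and Cdk4 were most like Shmt2, with r of 0.934 to 0.947. Aldh1l2 was most like Gjc1 (0.946), Fmod (0.942) and Ccdc3 (0.938), and Fmod is one of the tendon markers that varied between libraries. Mthfd2 followed Ercc6 (0.921), Phgdh followed Haus7 (0.925), Psat1 followed Gfod1 (0.922) and Psph followed Sertad1 (0.891).

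The wider pathway was read through 9 lists of 63 related genes, of which 49 were tested in soleus and 48 in quadriceps. In soleus 7 rose and 0 fell, beside the 7.06% of all genes called higher and 2.23% called lower, and the median log2 change of the 49 was 0.04. In quadriceps limma called 0 of 48 (0.00815% of all genes were called higher). There 6 genes, all of them higher, had an unadjusted p under 0.05, against 3.97% of all genes, and the median was -0.02. The genes called in soleus were 2 of 7 for folate transport and retention, 2 of 4 for folate-using synthesis, 2 of 8 for the methionine cycle and 1 of 3 for glycine cleavage. The median log2 changes of these lists in soleus were 0.527, 0.465, 0.083 and -0.038, in that order. In glycine cleavage 1 of the 3 had a positive log2 change, and Amt was lower without overlap (log2 change -1.22, limma unadjusted p = 0.032 and adjusted p = 0.177).

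Slc19a1, the reduced folate carrier that brings folate into cells, rose from 62.3 ± 22.0 in soleus controls (SD, n = 3) to 232.4 ± 36.0 in Myc-labelled soleus (SD, n = 4), with ranges of 37.6 to 79.5 and 202.5 to 282.1. Its log2 change was 1.94 with SE 0.26 (limma, adjusted p = 0.000104). Fpgs, which adds the glutamate tail that keeps folate inside the cell, rose from 69.0 ± 13.3 to 192.4 ± 29.8, a log2 change of 1.47 with SE 0.23 (limma, adjusted p = 0.000423). In quadriceps the log2 changes were 1.05 for Slc19a1 and 0.71 for Fpgs, with no overlap between groups and no call (limma, adjusted p = 0.64 and 0.77).

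Atic and Gart put formyl groups into the purine ring. Atic rose from 481.9 ± 24.1 to 1661 ± 53.4 in soleus, a log2 change of 1.78 with SE 0.10 (limma, adjusted p = 2.11e-08). Gart rose from 790.1 ± 118.9 to 1369 ± 235.8, a log2 change of 0.79 with SE 0.13 (limma, adjusted p = 0.0011). Quadriceps gave log2 changes of 1.18 for Atic (limma, adjusted p = 0.23) and 0.48 for Gart. Atic passed the threshold there when both muscles were fitted together, with 1 spread per gene shared between them (limma, adjusted p = 0.0034). Without Myc-labelled quadriceps library 2 the log2 change of Atic was 1.17.

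In the methionine cycle, Mtrr, which reactivates methionine synthase, rose from 410.1 ± 93.5 to 750.6 ± 51.1 in soleus, a log2 change of 0.89 with SE 0.14 (limma, adjusted p = 0.000493). Mat2a, which makes S-adenosylmethionine, rose by a log2 change of 0.36 (limma, adjusted p = 0.0294), and Gcsh, the lipoyl carrier protein of glycine cleavage, by 0.38 (limma, adjusted p = 0.0473). Both were near the threshold. Mat2a was not called without control 1 or 2 or Myc-labelled library 1, 2 or 4, and Gcsh was not called without control 1 or 2 or Myc-labelled library 2, 3 or 4, with adjusted p of up to 0.15 and 0.24 (limma, both without control 2). Upper-quartile scaling and the fit of both muscles together also lost both calls, and over all alternatives 5 to 8 related genes were called in soleus, with Slc19a1, Fpgs, Atic, Gart and Mtrr among them each time.

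The main fit of each muscle called no gene in the other 5 lists. With all soleus libraries in, a fit that added the replicate number as a block called Ddit3 and Chac1 lower. Leaving out Myc-labelled soleus library 2 called Slc1a5 lower, and leaving out library 3 called Chac1 lower. Median log2 changes in soleus were -0.34 for other folate interconversion (5 genes tested), 0.08 for transsulfuration and glutathione (4), -0.15 for serine transport and breakdown (6), -1.18 for choline-derived carbon units (3) and 0.09 for Atf4 and its targets (9). Those with the smallest p in each list were Aldh1l1 (log2 change -0.79) and Mthfd2l (-0.51), Gclc (0.40) and Cth (0.12), Srr (-0.35) and Slc1a4 (0.60), Chdh (-1.18) and Sardh (-1.35), and Ddit3 (-0.57) and Sesn2 (-0.64). Sardh stood high in 1 soleus library of the controls, with a range of 16.8 to 292.0.

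**Figure D4:**
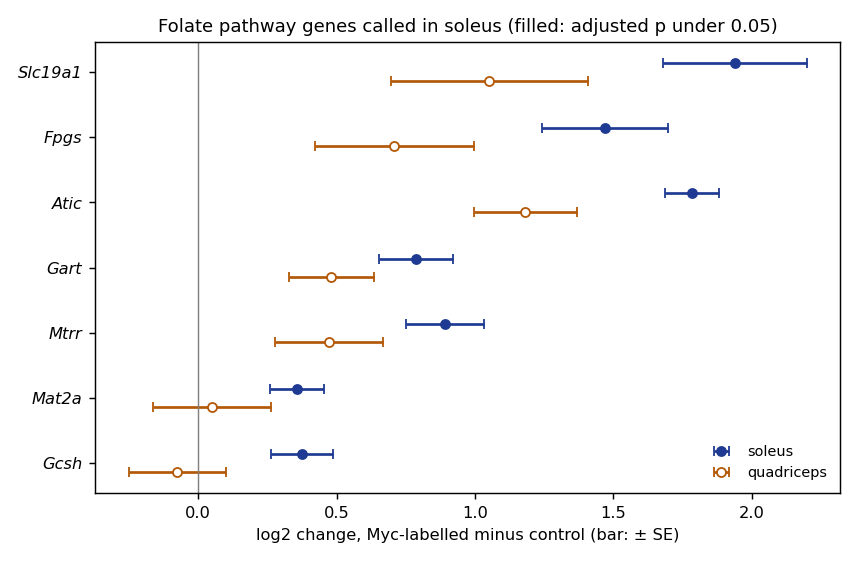
Log2 change, Myc-labelled minus control (horizontal axis), of the 7 related genes called in soleus, with bars of ± SE, soleus in blue and quadriceps in orange; filled symbols have an adjusted p under 0.05. Slc19a1 (1.94), Atic (1.78) and Fpgs (1.47) are farthest to the right in soleus, and no quadriceps symbol is filled.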

How the data were processed

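RNA was sequenced from soleus and quadriceps, and 1 table per muscle was deposited. The values are a normalised signal made by the authors: reads divided by 1 size factor per library, read here from the values, since 91.0% to 93.5% of those under 300 reads were whole multiples of 1 step within 0.02 of a read. Partek, STAR 2.7.8a and DESeq2 appear in the submitters' processing notes, as do both mm10 and mm39, so no gene positions are given. Groups came from titles, and 0 columns were unmapped.

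Each muscle was fitted alone with limma 3.58.1 in R 4.3.3 (trend, robust moderation with statmod 1.5.0) on log2(value + 1), which understates changes of low genes. Genes needed at least 10 in 3 soleus or 2 quadriceps libraries, and a gene was called where its Benjamini-Hochberg adjusted p, over all genes tested, was under 0.05. Ratios had 7 exact permutation tests rather than 8, since Mthfd1l was not analysed in quadriceps. Levels per kilobase used GENCODE vM21 exons. The fit was tested on simulated data. No 2 replicates agreed within sampling noise, and each counts as 1 sample. Alternatives were other scalings, pseudocounts, filters and fits, and leaving out libraries.

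The members and lists were chosen with earlier results of these data known. Named are all members, Myc, every related gene called, or up to 2 per list with the smallest p in soleus where none was called, and the genes most like each member. Amt and the neighbours sharing exons were added after seeing the data.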

Additional observations from a re-analysis of the deposited data

How the results depend on the processing

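In soleus Shmt1 and Mthfd1 were called in every alternative run, with log2 changes of 2.17 to 2.49 and 0.93 to 1.06. In quadriceps 0 members were called, against 2 (Shmt1 and Mthfd1) in 1 fit over all 11 libraries, where both muscles share 1 spread per gene. For related genes that count was 1 (Atic). Leaving out a quadriceps library leaves 1 in its group, so calls from those fits are not counted. The replicate block, with title numbers that do not track shared deviations in soleus (r of -0.353, -0.129 and 0.325 for same-numbered libraries; 0.266 in quadriceps, from 2 pairs only), called 2 members and 8 related genes in soleus, adding Ddit3 and Chac1 as lower and losing Gcsh, and 0 in quadriceps. Uncalled values of members that changed sign when leaving out 1 library were, each from lowest to highest, Mthfd2 in quadriceps (-0.14 to 0.43), Phgdh in quadriceps (-1.05 to 0.91), Psph in soleus (-0.25 to 0.06), Aldh1l2 in quadriceps (-1.02 to 0.05), the muscle difference of Shmt2 (-0.21 to 0.13) and of Aldh1l2 (-0.18 to 0.90), and the Psat1 to Phgdh ratio in quadriceps (-2.60 to 0.98); Aldh1l2 in soleus was 0.03 without both Myc-labelled libraries 3 and 4, and Phgdh -0.20. Uncalled values of Myc, Aldh1l1, Cth, Ddit3, Gcsh, Mat2a, Sesn2 and Slc1a4 in quadriceps, and of Cth in soleus (-0.04 to 0.28), also crossed 0. Mat2a and Gcsh in soleus were not called under upper-quartile scaling or in the fit over all 11 libraries, nor Gcsh without robust moderation. Fits that leave out libraries hold fewer of them, whereas the other fits named here keep all. The cause of the changed calls was not tested. Planned edgeR and DESeq2 fits were not run, because the values were not whole reads in nearly all genes. Phgdh, Psat1 and Mthfd1l fell to between 4 and 19 reads in some libraries, where counting error is wide.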
